A study of Mus musculus with 3 samples.

Results

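The genes described here are 45 genes of mitosis and chromosome segregation, taken by symbol from a table of 56691 mouse genes; each symbol matched 1 line. They encode the kinases, cyclins, spindle and kinetochore proteins, cytokinesis factors and condensins that a cell needs to divide. Their RNA was measured in 3 libraries of gastric corpus organoids, 1 library in each of 3 groups. Organoids are small hollow bodies of epithelium that grow in a gel, here Matrigel, and all 3 cultures were kept in a medium for proliferation; their titles also carry the label P5. The first group, Gpx4 KO-Mist1+, has the genotype label Gpx4 KO and came from Gpx4F/F;Mist1Cre/ERT2;RFPLSL mice. The other groups, Mist1+ and Mist1-, have the genotype label WT and came from Mist1Cre/ERT2;RFPLSL mice. All 3 groups thus share the Mist1Cre/ERT2 allele, which puts a Cre recombinase in cells that use the Mist1 locus, and the RFPLSL reporter; the mice were about 8 weeks old. Whether and how Cre was induced, and how Mist1+ and Mist1- cells were parted, is not given in the sources used here. The number of animals or clones behind a culture is not given in the sources used here.

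Since each group has a single library, differences have no replicate check and no p-value is given. Intervals in brackets are 95% intervals for counting error alone, and a fold divides counts that were first scaled by library totals. FPKM is the number of reads per 1000 bases of exon, scaled to the library total. Log2 ratios were taken of FPKM plus 1, among the 13351 genes that reached an FPKM of 1 in at least 1 library; these are called measured genes, and all 45 mitosis genes are among them. Counts of genes at least 1.5-fold or 2-fold apart were made on these log2 ratios; the added 1 makes them smaller than the folds of counts, so a gene whose fold of counts is just past a cutoff may not be counted. In bulk RNA, fewer dividing cells and less mitotic RNA per cell cannot be told apart. The libraries held 16396693 counts for Gpx4 KO-Mist1+, 16187378 for Mist1+ and 14943918 for Mist1-. All 6 epithelial markers were abundant, from 213 to 1080 FPKM. Of 18 markers of fibroblasts, immune cells, endothelium and muscle, 17 stayed at or below 0.17 FPKM in every library. The exception was Cd68, a lysosomal membrane protein used as a macrophage marker, with 24.4 FPKM in Gpx4 KO-Mist1+, 5.06 in Mist1+ and 4.37 in Mist1-; the pan-leukocyte gene Ptprc had 0 counts in Gpx4 KO-Mist1+, 1 in Mist1+ and 1 in Mist1-. The summed FPKM of the 5 immune markers was 24.4, 5.28 and 4.51 in these libraries, and its part in the results below was not tested. Gpx4 had 90.9 FPKM in Gpx4 KO-Mist1+, 71.6 in Mist1+ and 171 in Mist1-, so the culture labelled as the knockout did not have less of it than Mist1+. A count over a whole gene includes exons that a deletion may leave in place and does not check the deleted part, so every direction below belongs to the label.

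Entry into mitosis is driven by the kinase Cdk1 joined to cyclin B. Condensins then compact the chromosomes, kinetochores attach them to the spindle, and the spindle checkpoint holds back the anaphase-promoting complex until every chromosome is attached. The passenger complex corrects wrong attachments, and a contractile ring divides the cell. Most of these genes are transcribed late in the cell cycle, under complexes that bind a promoter element called CHR (cell cycle genes homology region) and the factor NF-Y, which binds the CCAAT box. In the stomach corpus, division is known to take place mainly in the isthmus of the gland, and chief cells can re-enter the cycle after injury.

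The promoters of these genes share letters that their selection did not use. RefSeq promoter windows on GRCm38.p6, from 250 bases before to 50 after a gene's start, were at hand for 37 of the 45 genes. There was no entry for Aurkb, Ccna2, Foxm1, Incenp, Kif20a, Pbk, Smc4 and Tpx2. The CHR words TTTGAA and TTCGAA were searched on both strands; TTCGAA reads the same on both. A gene with several windows, such as Ect2 or Prc1, was counted once if any of them held a match. At least 1 CHR word was found for 30 of 37 genes, or 81.1%, against 21.7% of the 27025 genes in the promoter table. The word CCAAT was found on either strand for 28 genes, or 75.7%, against 41.1% of all genes. A window with both was found for 26 genes, or 70.3% against 8.61%. CHR words lay mostly at the start: 27 of 37 genes, or 73.0%, had 1 that began within 50 bases of it, against 6.12% of all genes, while 27.0% against 17.1% had 1 farther upstream. The grouping by distance was chosen after the positions were seen. The E2F words TTTCCCGC, TTTGGCGC, TTTCGCGC and TTTGCCGC, on either strand, were found for 4 of the 37 genes, or 10.8%, against 2.60%. The 7 genes without a CHR word were Birc5, Ccnb1, Cenpe, Mad2l1, Melk, Nuf2 and Nusap1. A match is a run of letters and does not show binding.

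**Figure D1:**
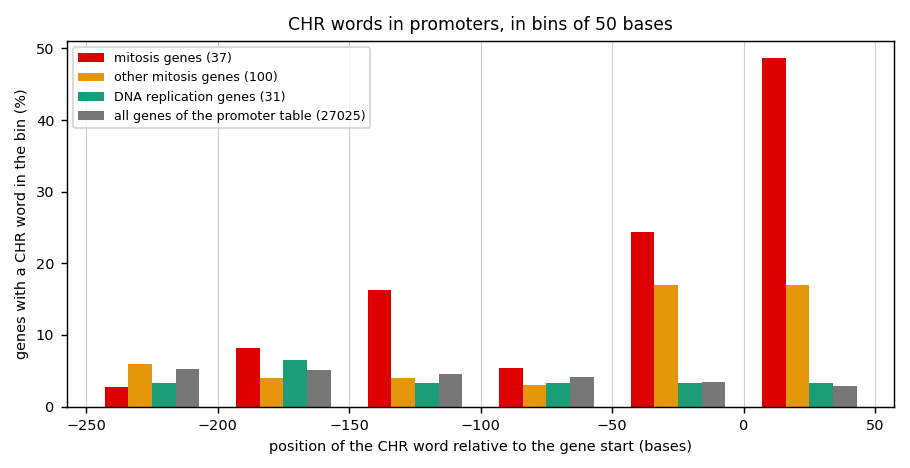
Percent of genes (vertical axis) with a CHR word that begins in each 50-base bin of the promoter (horizontal axis, bases from the gene start), for 37 mitosis genes, 100 other mitosis genes, 31 DNA replication genes and all 27025 genes of the promoter table. The bar of the mitosis genes reaches 48.6% in the bin after the start and 24.3% in the bin before it, where all genes are at 2.87% and 3.49%.

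The 6 most abundant of these genes with a CHR word, by FPKM in Mist1+, are printed to show where the words lie. Capitals mark CHR words (or their reverse, TTCAAA) and CCAAT words (or their reverse, ATTGG); in Ube2c a CCAAT overlaps a reverse one. Each runs 5′ to 3′ along the gene's own strand, with the gene start at base 251 of the run. The windows are chr11:99024140-99024439 on the minus strand for Top2a, chr7:122159185-122159484 on the plus strand for Plk1 and chr7:135716330-135716629 on the minus strand for Mki67. They are chr4:118437294-118437593 on the minus strand for Cdc20, chr9:70421505-70421804 on the minus strand for Ccnb2 and chr2:164769679-164769978 on the plus strand for Ube2c. Top2a holds 4 CHR words and 6 CCAAT words, and Plk1 holds 1 of each, with its CHR word beginning 31 bases after the start.
Top2a: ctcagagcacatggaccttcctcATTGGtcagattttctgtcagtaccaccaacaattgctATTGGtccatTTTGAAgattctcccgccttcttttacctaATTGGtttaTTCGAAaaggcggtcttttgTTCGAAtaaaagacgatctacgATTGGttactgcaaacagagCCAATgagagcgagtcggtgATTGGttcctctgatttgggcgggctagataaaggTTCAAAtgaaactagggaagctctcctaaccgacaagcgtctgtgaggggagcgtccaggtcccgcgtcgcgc
Plk1: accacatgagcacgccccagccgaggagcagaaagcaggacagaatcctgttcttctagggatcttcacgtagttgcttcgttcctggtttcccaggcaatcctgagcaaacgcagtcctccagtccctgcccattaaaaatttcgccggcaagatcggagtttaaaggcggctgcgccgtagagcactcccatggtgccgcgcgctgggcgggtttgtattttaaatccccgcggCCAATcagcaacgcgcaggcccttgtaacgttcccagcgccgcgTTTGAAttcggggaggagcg
Mki67: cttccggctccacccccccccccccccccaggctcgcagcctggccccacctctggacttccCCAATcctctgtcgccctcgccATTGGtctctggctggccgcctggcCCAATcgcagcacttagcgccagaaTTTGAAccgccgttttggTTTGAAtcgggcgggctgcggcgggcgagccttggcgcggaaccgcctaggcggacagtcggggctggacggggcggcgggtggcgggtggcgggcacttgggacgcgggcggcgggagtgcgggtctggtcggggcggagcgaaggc
Cdc20: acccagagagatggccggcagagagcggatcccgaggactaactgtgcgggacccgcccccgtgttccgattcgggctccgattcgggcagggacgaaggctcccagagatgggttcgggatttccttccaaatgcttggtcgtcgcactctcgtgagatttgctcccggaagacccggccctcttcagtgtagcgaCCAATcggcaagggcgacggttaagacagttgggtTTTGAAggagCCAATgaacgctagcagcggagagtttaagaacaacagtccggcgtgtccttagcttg
Ccnb2: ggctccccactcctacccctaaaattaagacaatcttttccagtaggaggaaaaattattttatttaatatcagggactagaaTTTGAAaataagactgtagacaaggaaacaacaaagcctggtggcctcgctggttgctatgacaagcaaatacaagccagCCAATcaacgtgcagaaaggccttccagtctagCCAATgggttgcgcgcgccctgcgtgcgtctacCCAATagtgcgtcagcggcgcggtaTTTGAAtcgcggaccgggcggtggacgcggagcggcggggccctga
Ube2c: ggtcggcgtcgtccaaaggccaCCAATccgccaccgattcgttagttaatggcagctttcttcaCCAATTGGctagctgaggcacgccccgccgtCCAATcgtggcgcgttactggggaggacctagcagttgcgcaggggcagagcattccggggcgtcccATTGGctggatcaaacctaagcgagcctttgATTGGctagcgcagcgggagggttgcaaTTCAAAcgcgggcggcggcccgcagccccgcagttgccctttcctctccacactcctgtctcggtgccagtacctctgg

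Summed, the 45 genes held 0.505% of the counts in Gpx4 KO-Mist1+, 0.678% in Mist1+ and 0.518% in Mist1-. That is 5048 (5014 to 5083), 6785 (6745 to 6825) and 5182 (5145 to 5218) CPM, which are counts scaled to one common library size. The sum was 1.34-fold (1.33 to 1.36) lower in Gpx4 KO-Mist1+ than in Mist1+, and its ratio of Mist1+ over Mist1- was 1.31 (1.30 to 1.32). Between Gpx4 KO-Mist1+ and Mist1- it differed by 1.03-fold (1.02 to 1.04), with the first lower. These sums were scaled by library totals only. In that last comparison the median log2 ratio of the 45 genes changed sign with scaling. It was -0.19, and 0.08 with FPKM rescaled to a common sum. The median FPKM over the 45 genes was 17.1, 23.5 and 18.1 in the same order of libraries, beside 6.51, 6.90 and 5.63 over all measured genes. Levels ranged from 4.04 to 66.0 FPKM in Gpx4 KO-Mist1+, from 5.37 to 87.1 in Mist1+ and from 2.15 to 76.0 in Mist1-, and the lowest count of any gene in any library was 281, for Espl1 in Mist1-.

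**Figure D2:**
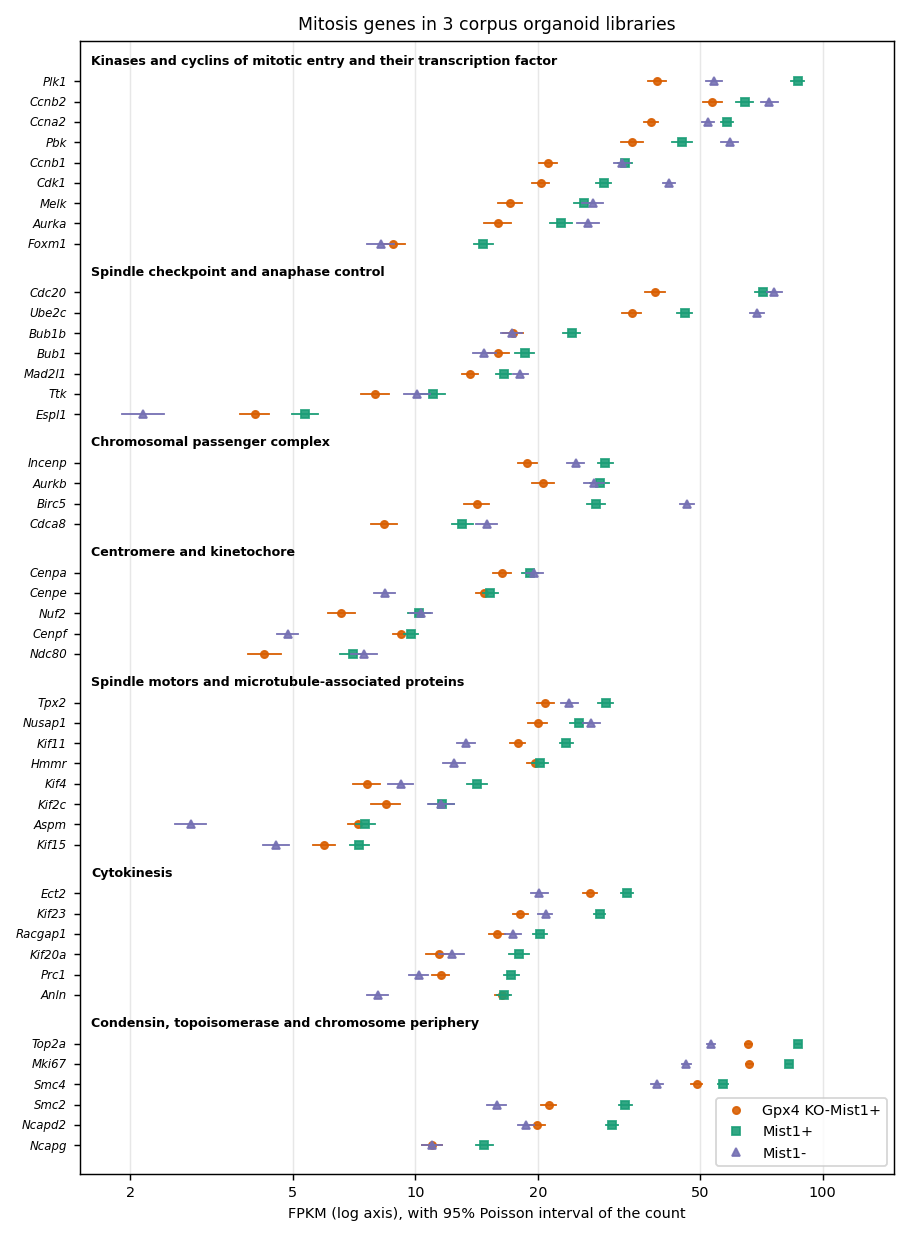
FPKM (horizontal log axis) of the 45 mitosis genes, 1 row per gene, grouped by role; circles are Gpx4 KO-Mist1+, squares Mist1+ and triangles Mist1-, with lines for the 95% Poisson interval of the count. The circle lies left of the square in all 45 rows on this scaling, while the triangle lies on either side of the square.

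The comparison of Gpx4 KO-Mist1+ with Mist1+ asks what the labelled loss of Gpx4, a glutathione peroxidase that protects membrane lipids, goes with in Mist1+ organoids. All 45 mitosis genes had a lower FPKM in Gpx4 KO-Mist1+; with median ratio scaling 40 did, and Cenpe, Cenpf, Anln, Hmmr and Aspm had a ratio above 0. Over all measured genes 58.8% were below 0, and 51.55% with median ratio scaling. The median log2 ratio of the 45 genes was -0.42, with a range of -1.13 to -0.02, beside -0.09 for all measured genes. The differences were small: 1 gene, Plk1, was at least 2-fold lower (background 2.74%) and none at least 2-fold higher (background 4.81%). At least 1.5-fold lower were 12 genes, or 26.7%, against 11.3% of measured genes. None was at least 1.5-fold higher, against 10.6%. The 12 were Plk1, Birc5, Cdc20, Kif4, Foxm1, Kif23, Ndc80, Kif20a, Incenp, Smc2, Ccna2 and Ccnb1. By the fold of counts Melk, Cdca8, Nuf2 and Ncapd2 passed too, which makes 16, or 35.6% against 16.9%. The counting interval of the fold lay wholly below 1 for 41 of 45 genes, against 40.5% of measured genes, many of which have fewer counts and wider intervals. It spanned 1 for Cenpe, Hmmr, Aspm and Anln.

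Mist1+ was next compared with Mist1-, the other culture with the label WT. The mitosis genes went both ways: 31 were above 0 in Mist1+, or 68.9%, against 58.8% of measured genes, and 14 were below, or 31.1% against 40.5%. With FPKM rescaled to a common sum 41 were above 0 and 4 below, where 26.8% of measured genes were below. With median ratio scaling 25 were above 0 and 20 below, where 51.5% of measured genes were below. The median log2 ratio was 0.31, beside 0.15 for all measured genes, and it was 0.62 beside 0.40 and 0.10 beside -0.02 under those scalings. Espl1, Aspm and Smc2 were at least 2-fold higher (background 7.88%), with Smc2 just at the cutoff at a log2 ratio of 1.0. By the fold of counts Cenpf and Anln passed too, which makes 5, or 11.1% against 15.8%. By the log2 ratio no gene was at least 2-fold lower (background 5.73%). At least 1.5-fold higher were 15 genes, or 33.3% against 23.7%, and Birc5 was the 1 gene at least 1.5-fold lower, against 15% of measured genes. By the fold of counts Ube2c was also just past 1.5-fold lower, where 18.6% of measured genes were. Across all measured genes the calls of 2-fold higher and lower numbered 1052 and 765; they numbered 2117 and 344 with the common sum and 643 and 1219 with median ratio scaling.

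Set against Mist1-, Gpx4 KO-Mist1+ had 27 mitosis genes below 0, or 60.0%, against 45.2% of measured genes, and 18 above, or 40.0% against 54.3%. The median log2 ratio was -0.19, beside 0.09 for all measured genes, and it was 0.08 beside 0.32 with FPKM rescaled to a common sum. Cdk1 and Birc5 were at least 2-fold lower (background 8.56%), and Aspm was at least 2-fold higher (background 11.6%). By the fold of counts Ube2c also passed on the lower side and Anln on the higher, where 12.6% and 19.3% of measured genes did. At least 1.5-fold lower were 9 of the 45 genes, a share near the 20.1% of measured genes, and 6 were at least 1.5-fold higher, or 13.3% against 25.6%. The counting interval lay wholly below 1 for 25 genes, or 55.6% against 34.3%. These comparisons share libraries, so they are not independent of each other.

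**Figure D3:**
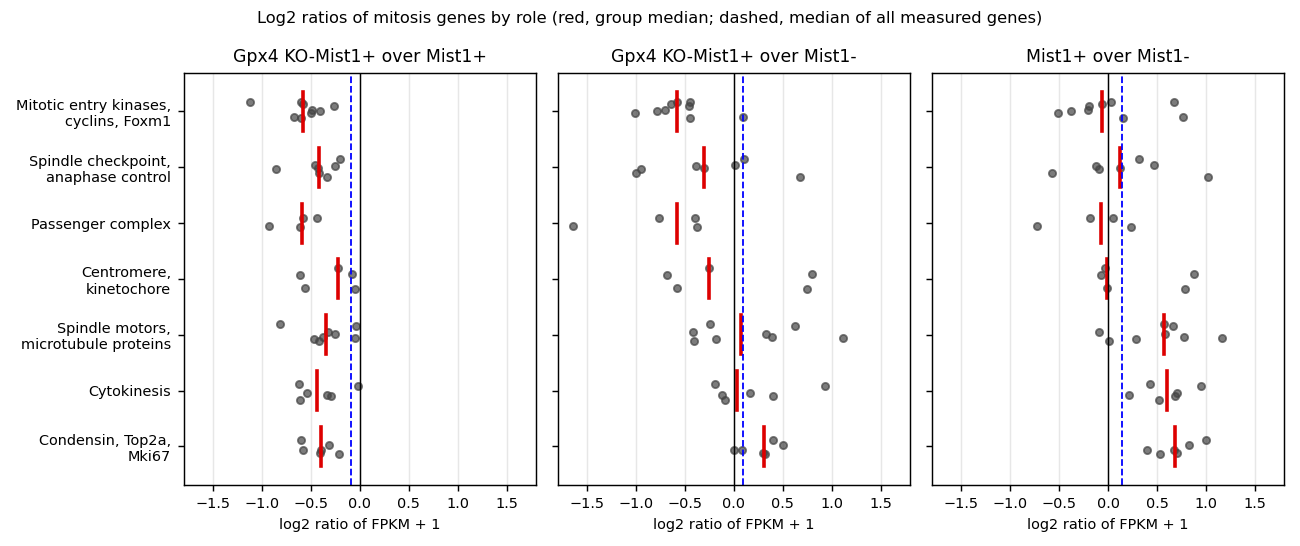
Log2 ratios of FPKM plus 1 (horizontal axes) of the 45 mitosis genes, 1 point per gene, in rows by role; red bars are the medians of a role and dashed lines the median of all measured genes. Every point is left of 0 for Gpx4 KO-Mist1+ over Mist1+ (with median ratio scaling 40 of 45 are). For Mist1+ over Mist1- the medians run from -0.07 for the passenger complex to 0.68 for condensin, Top2a and Mki67. They run from -0.29 to 0.46 with median ratio scaling and from 0.24 to 1.0 with a common sum. With the trend with gene size (described below) removed they run from -0.40 for centromere and kinetochore to 0.25 for cytokinesis.

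Kinases and cyclins of mitotic entry, with their transcription factor Foxm1, were the role with the second lowest median in Gpx4 KO-Mist1+ over Mist1+, at -0.58 over 9 genes. Plk1, the Polo-like kinase that acts in entry, spindle assembly and cytokinesis, lies on chromosome 7, 122159439 to 122169873, in GRCm38. It had 39.2 FPKM in Gpx4 KO-Mist1+, 86.8 in Mist1+ and 54.1 in Mist1-, or 1414 counts in Gpx4 KO-Mist1+, 3089 in Mist1+ and 1778 in Mist1-. Mist1+ thus stood above both other libraries. Plk1 was 2.21-fold lower (2.08 to 2.36) in Gpx4 KO-Mist1+ than in Mist1+, with the lowest log2 ratio of the 45 genes, and 1.6-fold higher (1.51 to 1.7) in Mist1+ than in Mist1-. Foxm1, the transcription factor that drives many late cell cycle genes, was likewise highest in Mist1+, with 8.82 FPKM in Gpx4 KO-Mist1+, 14.7 in Mist1+ and 8.22 in Mist1-. For Foxm1 the other libraries lay close together on this scaling. It was 1.67-fold lower (1.53 to 1.82) in Gpx4 KO-Mist1+ than in Mist1+ and 1.79-fold higher (1.63 to 1.96) in Mist1+ than in Mist1-; the interval of Gpx4 KO-Mist1+ over Mist1- spanned 1, at 1.07-fold (0.969 to 1.19).

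Cdk1 and Pbk followed another order. Cdk1, the kinase that cyclin B activates, had 20.3 FPKM in Gpx4 KO-Mist1+, 29.0 in Mist1+ and 41.9 in Mist1-, highest in Mist1- and lowest in Gpx4 KO-Mist1+. It was 1.43-fold lower (1.34 to 1.52) in Gpx4 KO-Mist1+ than in Mist1+ and 1.45-fold lower (1.37 to 1.53) in Mist1+ than in Mist1-. Pbk, a mitotic protein kinase, stood in the same order, with 34.0 FPKM in Gpx4 KO-Mist1+, 45.2 in Mist1+ and 59.1 in Mist1-. Cyclin B2, Ccnb2, was 1.2-fold lower (1.12 to 1.29) in Gpx4 KO-Mist1+ than in Mist1+, while cyclin B1, Ccnb1, was 1.54-fold lower (1.45 to 1.65) and cyclin A2, Ccna2, 1.53-fold lower (1.46 to 1.61). So the FPKM of Ccnb2 per that of Ccnb1 was 2.53 in Gpx4 KO-Mist1+, 1.97 in Mist1+ and 2.30 in Mist1-. Aurka, a spindle pole kinase, was 1.43-fold lower (1.29 to 1.58) and Melk, another mitotic kinase, 1.52-fold lower (1.39 to 1.66) in Gpx4 KO-Mist1+ than in Mist1+. Between Mist1+ and Mist1- the ratios of Ccnb1, Ccnb2, Ccna2, Aurka and Melk lay between -0.21 and 0.15, and each changed sign under another scaling. Of Ccna2's annotated exons 12.5% overlap those of Exosc9 on the other strand. The use of strand in counting is not given in the sources used here, so the counts of Ccna2, and of the 5 other genes named below that have over 10% of their exons in such an overlap, are uncertain to that extent. Overlaps of 1.35% to 7.09% were found for Top2a, Foxm1, Cdc20, Ncapd2, Nusap1, Cdca8 and Plk1. That of Plk1 is the largest of these, with Gm44985 on the other strand, a gene with 2122 counts over the 3 libraries.

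Genes of the spindle checkpoint and of anaphase had a median of -0.42 over 7 genes in Gpx4 KO-Mist1+ over Mist1+. Cdc20, which the checkpoint sequesters and which activates the anaphase-promoting complex, had 38.8 FPKM in Gpx4 KO-Mist1+, 71.3 in Mist1+ and 76.0 in Mist1-. The library labelled knockout was well below the other 2, which lay close together on this scaling. The log2 ratio of Cdc20 in Mist1+ over Mist1- was 0.23 with FPKM rescaled to a common sum and -0.32 with median ratio scaling. Cdc20 was 1.84-fold lower (1.71 to 1.97) in Gpx4 KO-Mist1+ than in Mist1+. Ube2c, the ubiquitin-conjugating enzyme of that complex, had 34.0 FPKM in Gpx4 KO-Mist1+, 45.8 in Mist1+ and 68.9 in Mist1-, a stepwise order with Mist1- highest. It was 1.35-fold lower (1.26 to 1.44) in Gpx4 KO-Mist1+ than in Mist1+ and 1.5-fold lower (1.42 to 1.6) in Mist1+ than in Mist1-; 22.8% of its annotated exons overlap Tnnc2 on the other strand, which had 1 count in all.

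Among the checkpoint kinases, Bub1b, which encodes BubR1, had 17.4 FPKM in Gpx4 KO-Mist1+, 24.2 in Mist1+ and 17.3 in Mist1-. So Mist1+ stood alone above a pair of libraries that differed by 1.01-fold (0.929 to 1.1) on this scaling. It was 1.39-fold lower (1.29 to 1.5) in Gpx4 KO-Mist1+ than in Mist1+. Bub1 was 1.16-fold lower (1.07 to 1.26) and Ttk, which encodes the kinase Mps1, 1.38-fold lower (1.25 to 1.53) in Gpx4 KO-Mist1+ than in Mist1+. Mad2l1, the checkpoint protein that binds Cdc20, was 1.21-fold lower (1.14 to 1.29). Espl1, which encodes separase, the protease that cuts cohesin, was the least abundant gene in Mist1-, with 4.04 FPKM in Gpx4 KO-Mist1+, 5.37 in Mist1+ and 2.15 in Mist1-. It was 2.5-fold higher (2.17 to 2.87) in Mist1+ than in Mist1- and 1.33-fold lower (1.19 to 1.48) in Gpx4 KO-Mist1+ than in Mist1+.

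The chromosomal passenger complex joins the kinase Aurkb to Incenp, Cdca8 (borealin) and Birc5 (survivin), and its 4 genes had the lowest median of all roles in Gpx4 KO-Mist1+ over Mist1+, at -0.60. Birc5 differed most, with 14.1 FPKM in Gpx4 KO-Mist1+, 27.8 in Mist1+ and 46.5 in Mist1-. No pair of these intervals overlapped. It was 1.96-fold lower (1.8 to 2.14) in Gpx4 KO-Mist1+ than in Mist1+, 1.67-fold lower (1.57 to 1.79) in Mist1+ than in Mist1- and 3.29-fold lower (3.03 to 3.57) in Gpx4 KO-Mist1+ than in Mist1-, the largest difference of any mitosis gene in any of the comparisons. The other subunits did not follow that scale. Incenp, the scaffold, had 18.8 FPKM in Gpx4 KO-Mist1+, 29.3 in Mist1+ and 24.8 in Mist1-, and was 1.55-fold lower (1.45 to 1.67) in Gpx4 KO-Mist1+ than in Mist1+. Aurkb had 20.6 FPKM in Gpx4 KO-Mist1+, 28.3 in Mist1+ and 27.4 in Mist1-, and was 1.38-fold lower (1.27 to 1.49). Cdca8 was 1.55-fold lower (1.41 to 1.71), at 8.39 FPKM in Gpx4 KO-Mist1+, 13.0 in Mist1+ and 15.0 in Mist1-. Birc5 FPKM per Incenp FPKM was thus 0.751 in Gpx4 KO-Mist1+, 0.948 in Mist1+ and 1.88 in Mist1-, whereas Aurkb per Incenp was 1.09, 0.968 and 1.11.

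Centromere and kinetochore genes split by their ratios, with a median of -0.22 over 5 genes in Gpx4 KO-Mist1+ over Mist1+. Ndc80 and Nuf2 encode partners in the complex that grips microtubules, and their ratios were alike. Ndc80 had 4.26 FPKM in Gpx4 KO-Mist1+, 7.04 in Mist1+ and 7.47 in Mist1-, and Nuf2 had 6.59 FPKM in Gpx4 KO-Mist1+, 10.2 in Mist1+ and 10.3 in Mist1-. In both, Gpx4 KO-Mist1+ was low and the libraries labelled WT were level on this scaling. With FPKM rescaled to a common sum the log2 ratios of Ndc80 and Nuf2 in Mist1+ over Mist1- were 0.21 and 0.28. With median ratio scaling they were -0.28 and -0.22. Ndc80 was 1.65-fold lower (1.47 to 1.86) and Nuf2 1.55-fold lower (1.41 to 1.71) in Gpx4 KO-Mist1+ than in Mist1+, and in Mist1+ over Mist1- they were at 0.942-fold (0.849 to 1.05) and 0.987-fold (0.904 to 1.08). Nuf2 FPKM per Ndc80 FPKM was 1.55, 1.45 and 1.38 in Gpx4 KO-Mist1+, Mist1+ and Mist1-.

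Cenpe and Cenpf, large proteins of the outer kinetochore, showed another pattern. Cenpe had 14.8 FPKM in Gpx4 KO-Mist1+, 15.3 in Mist1+ and 8.42 in Mist1-, and Cenpf had 9.2 FPKM in Gpx4 KO-Mist1+, 9.77 in Mist1+ and 4.86 in Mist1-. Here Gpx4 KO-Mist1+ and Mist1+ lay close together and Mist1- was low. In Mist1+ over Mist1- the log2 ratios of Cenpe and Cenpf were 0.79 and 0.88, and 0.23 and 0.09 with the trend with gene size (described below) removed. Cenpe was 1.82-fold higher (1.69 to 1.96) and Cenpf 2.01-fold higher (1.87 to 2.16) in Mist1+ than in Mist1-, while their folds of Gpx4 KO-Mist1+ over Mist1+ were 0.965-fold (0.908 to 1.03) and 0.942-fold (0.89 to 0.997). Cenpa, the histone H3 variant that marks the centromere, had 16.3 FPKM in Gpx4 KO-Mist1+, 19.1 in Mist1+ and 19.6 in Mist1-, and was 1.17-fold lower (1.1 to 1.26) in Gpx4 KO-Mist1+ than in Mist1+.

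Spindle motors and microtubule-associated proteins had a median of -0.35 over 8 genes in Gpx4 KO-Mist1+ over Mist1+ and 0.57 in Mist1+ over Mist1-. With the trend with gene size (described below) removed, the median in Mist1+ over Mist1- was 0.15, with 3 genes below 0. Kif4, the chromokinesin that binds chromosome arms and the central spindle, had 7.61 FPKM in Gpx4 KO-Mist1+, 14.2 in Mist1+ and 9.22 in Mist1-, with Mist1+ alone high. It was 1.86-fold lower (1.7 to 2.05) in Gpx4 KO-Mist1+ than in Mist1+ and 1.54-fold higher (1.4 to 1.68) in Mist1+ than in Mist1-; 15.1% of its annotated exons overlap Pdzd11 on the other strand. Kif11, the motor that pushes spindle poles apart, had 17.8 FPKM in Gpx4 KO-Mist1+, 23.5 in Mist1+ and 13.3 in Mist1-. It was 1.32-fold lower (1.25 to 1.39) in Gpx4 KO-Mist1+ than in Mist1+. Kif15, a motor that can stand in for Kif11, showed the same order, with 5.97 FPKM in Gpx4 KO-Mist1+, 7.29 in Mist1+ and 4.55 in Mist1-. With the size trend removed, the log2 ratios of Kif11 and Kif15 were 0.28 and -0.09 in Mist1+ over Mist1-. They were then -0.02 and -0.31 in Gpx4 KO-Mist1+ over Mist1-.

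Aspm, a spindle pole protein, had 7.23 FPKM in Gpx4 KO-Mist1+, 7.54 in Mist1+ and 2.81 in Mist1-. Its levels in both Mist1+ cultures were alike and Mist1- was low. It was 2.69-fold higher (2.42 to 2.99) in Mist1+ than in Mist1- and 2.58-fold higher (2.32 to 2.86) in Gpx4 KO-Mist1+ than in Mist1-. Its log2 ratio in Mist1+ over Mist1- was 1.16, and 0.48 with the trend with gene size (described below) removed. Its fold of Gpx4 KO-Mist1+ over Mist1+ was 0.959-fold (0.889 to 1.03). Hmmr, a spindle assembly factor, likewise had 19.7 FPKM in Gpx4 KO-Mist1+, 20.2 in Mist1+ and 12.5 in Mist1-. Tpx2, the activator of Aurka on the spindle, was 1.4-fold lower (1.32 to 1.5), the depolymerizing kinesin Kif2c 1.37-fold lower (1.23 to 1.53) and Nusap1, which bundles microtubules, 1.26-fold lower (1.17 to 1.36) in Gpx4 KO-Mist1+ than in Mist1+.

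Cytokinesis genes were all above 0 in Mist1+ over Mist1-, 6 of 6 (background 58.8%), with a median of 0.60. With median ratio scaling Racgap1 was below 0, and with the trend with gene size removed Kif23 and Racgap1 were. In Gpx4 KO-Mist1+ over Mist1+ the 6 cytokinesis genes had a median of -0.44. Kif23 and Racgap1 form centralspindlin, which bundles the midzone. Kif23 had 18.1 FPKM in Gpx4 KO-Mist1+, 28.3 in Mist1+ and 20.9 in Mist1-, and Racgap1 had 15.9 FPKM in Gpx4 KO-Mist1+, 20.3 in Mist1+ and 17.4 in Mist1-. Kif23 was 1.56-fold lower (1.48 to 1.65) and Racgap1 1.27-fold lower (1.2 to 1.36) in Gpx4 KO-Mist1+ than in Mist1+, so Kif23 FPKM per Racgap1 FPKM was 1.14 in Gpx4 KO-Mist1+, 1.40 in Mist1+ and 1.2 in Mist1-. Prc1, which crosslinks midzone microtubules, had 11.5 FPKM in Gpx4 KO-Mist1+, 17.2 in Mist1+ and 10.2 in Mist1-, and was 1.49-fold lower (1.4 to 1.59). The midzone kinesin gene Kif20a had 11.4 FPKM in Gpx4 KO-Mist1+, 17.99 in Mist1+ and 12.3 in Mist1-, and was 1.58-fold lower (1.44 to 1.72); 29.3% of its annotated exons overlap Cdc23 on the other strand. Of Prc1's exons 11.1% overlap Rccd1.

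Ect2, the exchange factor that activates RhoA at the division plane, had 26.9 FPKM in Gpx4 KO-Mist1+, 33.1 in Mist1+ and 20.2 in Mist1-. It was 1.23-fold lower (1.17 to 1.3) in Gpx4 KO-Mist1+ than in Mist1+ and 1.64-fold higher (1.54 to 1.74) in Mist1+ than in Mist1-. Anln, which encodes the ring protein anillin, had 16.3 FPKM in Gpx4 KO-Mist1+, 16.5 in Mist1+ and 8.08 in Mist1-. Its ratio was nearest to 0 of all 45 genes in Gpx4 KO-Mist1+ over Mist1+, at 0.988-fold (0.933 to 1.05), and it was 2.05-fold higher (1.9 to 2.2) in Mist1+ than in Mist1-. Anln, Aspm, Cenpe, Cenpf and Hmmr thus had levels in Gpx4 KO-Mist1+ close to those in Mist1+ and above those in Mist1-. Their log2 ratios in Gpx4 KO-Mist1+ over Mist1- were 0.93, 1.11, 0.74, 0.80 and 0.62 in that order. With the trend with gene size (described below) removed, they were 0.41, 0.45, 0.24, 0.02 and 0.39.

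Condensin genes, Top2a and Mki67 were the role with the highest median in Mist1+ over Mist1-, at 0.68 over 6 genes. All 6 were above 0 under each scaling tried. Of all measured genes 40.5% were below 0 as reported, 26.8% with a common sum and 51.5% with median ratio scaling. With the trend with gene size (described below) removed, the median of the 6 genes was 0.21 and Ncapg was below 0. Cytokinesis genes then had the highest median, at 0.25. In Gpx4 KO-Mist1+ over Mist1+ the median of condensin genes, Top2a and Mki67 was -0.40. Top2a, the topoisomerase that untangles sister chromatids, had 9698 counts in Gpx4 KO-Mist1+, 12703 in Mist1+ and 7173 in Mist1-. In FPKM these were 65.6, 87.1 and 53.3, so that all 3 libraries were apart by more than counting error, with Mist1+ highest. It was 1.33-fold lower (1.29 to 1.36) in Gpx4 KO-Mist1+ than in Mist1+ and 1.63-fold higher (1.59 to 1.68) in Mist1+ than in Mist1-. Mki67, the Ki-67 protein that coats mitotic chromosomes and is used as a proliferation marker, had 66.0 FPKM in Gpx4 KO-Mist1+, 82.5 in Mist1+ and 46.3 in Mist1-, the same order. It was 1.25-fold lower (1.22 to 1.28) in Gpx4 KO-Mist1+ than in Mist1+ and 1.78-fold higher (1.73 to 1.84) in Mist1+ than in Mist1-. The order of Gpx4 KO-Mist1+ and Mist1- depended on the size trend. In Gpx4 KO-Mist1+ over Mist1- the log2 ratios of Top2a and Mki67 were 0.30 and 0.50. With the trend with gene size removed they were -0.23 and -0.08.

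Smc2 and Smc4 are the paired ATPases of condensin, and their ratios differed. Smc2 had 21.2 FPKM in Gpx4 KO-Mist1+, 32.8 in Mist1+ and 15.9 in Mist1-, and Smc4 had 49.0 FPKM in Gpx4 KO-Mist1+, 56.9 in Mist1+ and 39.2 in Mist1-. Smc2 was 1.54-fold lower (1.46 to 1.64) and Smc4 1.16-fold lower (1.11 to 1.21) in Gpx4 KO-Mist1+ than in Mist1+; Smc2 was 2.07-fold higher (1.94 to 2.21) and Smc4 1.45-fold higher (1.39 to 1.52) in Mist1+ than in Mist1-. Smc2 FPKM per Smc4 FPKM was 0.433 in Gpx4 KO-Mist1+, 0.576 in Mist1+ and 0.404 in Mist1-. Ncapd2 and Ncapg, the regulatory subunits of condensin I, were 1.52-fold lower (1.44 to 1.61) and 1.34-fold lower (1.25 to 1.45) in Gpx4 KO-Mist1+ than in Mist1+. Ncapd2 had 19.9 FPKM in Gpx4 KO-Mist1+, 30.4 in Mist1+ and 18.7 in Mist1-. Ncapg had 11.0 FPKM in Gpx4 KO-Mist1+, 14.8 in Mist1+ and 11.0 in Mist1-, and 13.4% of its annotated exons overlap Lcorl on the other strand.

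The spread among the genes in Mist1+ over Mist1- went with gene size. Across the 45 genes the Spearman rho between exonic size and log2 ratio was 0.67, and across all 13351 measured genes it was 0.49; genes of 1 library pair share its depth and are not independent replicates. The 23 genes of up to 5386 bases had a median of 0.02, and the 22 longer ones, up to 15433 bases, had 0.68. All genes showed a like step. Measured genes were cut by size into 5 classes of about equal number. In the second class, with a median size of 2340 bases, the median log2 ratio was -0.23 over all genes and -0.09 over 7 mitosis genes. In the class of the longest genes, with a median of 9234 bases, it was 0.63 over all genes and 0.74 over 14 mitosis genes. With the size trend removed, the median of the 45 genes was 0.09, with 27 above 0 and 18 below. Of all measured genes 49.5% were then below 0. Plk1, at 2199 bases, was 0.94 above the trend and Smc2 0.68 above it, while Cdk1 was at -0.78 and Birc5 at -0.74.

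The lower levels in Gpx4 KO-Mist1+ than in Mist1+ did not go with gene size in this way. Across all measured genes rho was -0.02, and across the 45 genes it was 0.43, with the longer genes nearer to 0. The median was -0.47 over the 23 shorter and -0.36 over the 22 longer genes. In each of the 4 size classes that held several mitosis genes their median was lower than that of all genes of the class, at -0.49 beside -0.11, -0.60 beside -0.12, -0.53 beside -0.12 and -0.32 beside -0.07. With the trend removed, 42 of 45 were below 0 (background 50.6%), and Cenpe, Anln and Hmmr were above. In Gpx4 KO-Mist1+ over Mist1- the ratios again went with size, with rho of 0.73 over the 45 genes and 0.39 over all. With the trend removed, 35 of the 45 genes were below 0 (background 50.4%) and their median was -0.32.

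**Figure D4:**
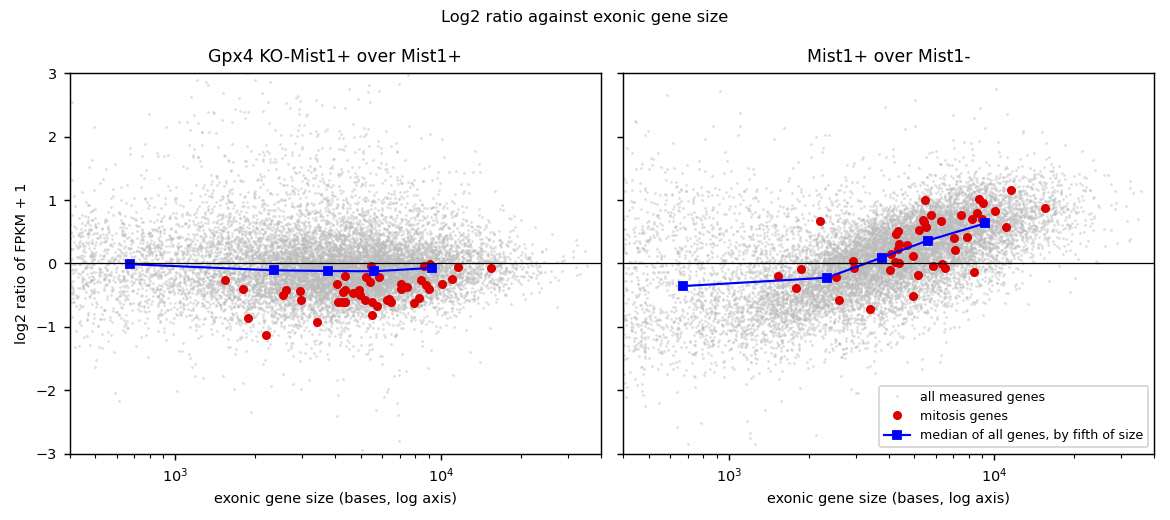
Log2 ratio of FPKM plus 1 (vertical axes) against exonic gene size in bases (horizontal log axes) for all 13351 measured genes (grey), the 45 mitosis genes (red) and the median of all genes in each of 5 size classes (blue); some grey points lie outside the axes. On the left, red points lie mostly below a flat blue line; on the right, they follow a blue line that climbs to 0.63.

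Other genes of the same processes, 118 in 5 lists, were set beside the 45. In Gpx4 KO-Mist1+ over Mist1+, 109 of 118 were below 0, with a median of -0.38. Of all measured genes 58.8% were below 0, the background for each list below. With median ratio scaling that background was 51.55%. At least 2-fold lower was 1 gene (background 2.74%). That was the checkpoint gene Mad1l1, at 3.66 FPKM in Gpx4 KO-Mist1+, 8.63 in Mist1+ and 8.16 in Mist1-. The other checkpoint and mitotic kinase genes were all below 0, 18 of 18, with a median of -0.38; Haspin, the kinase of histone H3 at centromeres, was next lowest at -0.67, and Cks1b and Cdc25b were nearest to 0 at -0.24 and -0.18. Other centromere and kinetochore genes were also all below 0, 30 of 30, with a median of -0.53. Ska1, at -0.83, and the Ndc80 complex gene Spc24, at -0.83, were lowest, and Cenpm and Cenpc1 highest, at -0.14 and -0.15. Anaphase-promoting complex genes had a median of -0.34 with 17 of 17 below 0 (15 with median ratio scaling); the inhibitor gene Fbxo5 was at -0.81, Anapc5 at -0.72, Cdc16 at -0.05 and Cdc26 at -0.04.

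Spindle and cytokinesis genes outside the 45 had 29 of 35 below 0 (28 with median ratio scaling) and a median of -0.38, from -0.72 for the centriole gene Cenpj and -0.68 for Haus8 to 0.27 for Ckap2 and 0.45 for Arhgef39. Condensin and cohesin genes outside the 45 had 15 of 18 below 0 (13 with median ratio scaling) and a median of -0.22. The background for both lists was 58.8% of measured genes below 0, and 51.55% with median ratio scaling. Sororin, Cdca5, was at -0.85 and shugoshin, Sgo1, at -0.84, while securin, Pttg1, was at 0.18 and the cohesin gene Stag2 at 0.46. In Mist1+ over Mist1- the 118 genes had a median of 0.17, beside 0.15 for all measured genes. Above 0 were 77 of 118 (background 58.8%). With the trend with gene size removed, 55 of 118 were below 0 (background 49.5%) and the median was 0.047. Other centromere and kinetochore genes had 18 of 30 above 0, near the background of 58.8%, but 10 with median ratio scaling and 21 with a common sum. Condensin and cohesin genes outside the 45 had 16 of 18 above 0, and 14 and 17 under those scalings. Of all measured genes 51.5% were below 0 with median ratio scaling and 26.8% with a common sum.

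Genes of DNA replication, which act in S phase before mitosis, were lower still in Gpx4 KO-Mist1+ than in Mist1+. All 40 were below 0 (background 58.8%), with a median of -0.74 beside -0.42 for the mitosis genes. At least 1.5-fold lower were 26 (background 11.3%), and 3 were at least 2-fold lower (background 2.74%). The helicase gene Mcm5 was at -1.15 and the flap endonuclease gene Fen1 at -1.13, while Dut was at -0.31 and Pold1 at -0.26. Against Mist1- the replication genes had a median of -0.69, with 36 of 40 below 0 (background 45.2%), and the mitosis genes -0.19. In Mist1+ over Mist1- they had 0.09 and the mitosis genes 0.31, or -0.12 and 0.10 with median ratio scaling. The difference between the lists has no test here. Their promoters differed too. Of 31 replication genes with a window, 19.4% held a CHR word and 41.9% an E2F word, against 81.1% and 10.8% of the mitosis genes.

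**Figure D5:**
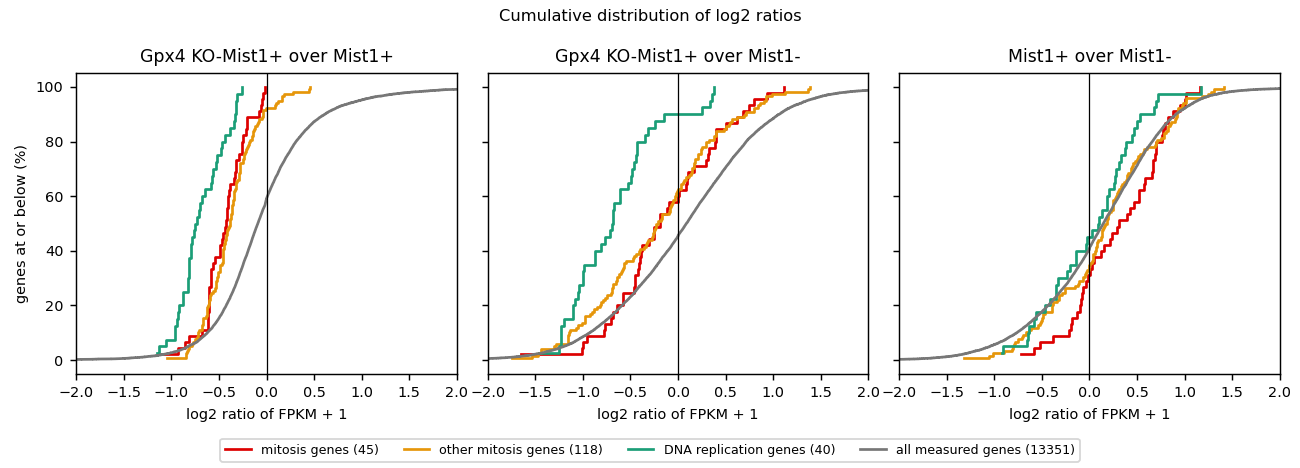
Percent of genes (vertical axis) at or below a given log2 ratio of FPKM plus 1 (horizontal axes) for the 45 mitosis genes, 118 other mitosis genes, 40 DNA replication genes and all 13351 measured genes. For Gpx4 KO-Mist1+ over Mist1+ the medians lie at -0.42, -0.38, -0.74 and -0.09; for Mist1+ over Mist1- the curves lie closer together, with medians of 0.31, 0.17, 0.09 and 0.15.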

How the data were processed

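The deposited table holds 1 line per gene with its exonic size in bases and, per the file headers, the read count (in whole numbers) and the FPKM of each library. Per the submitters' processing notes, cutadapt 1.9.1, HISAT2 2.2.1 and HTSeq 0.6.1 were used with GRCm38.p5. The deposited FPKM equalled the count divided by exonic size and column total within 1.59% in Gpx4 KO-Mist1+, 1.34% in Mist1+ and 2.77% in Mist1- for genes with at least 50 counts. Since FPKM divides by the exonic size of all annotated isoforms, a level depends on that size. Lines without a symbol hold at most 0.298% of a library's counts and stayed in the totals. The table's start and end matched GENCODE M21 on GRCm38 for 2 of the 45 genes, so gene coordinates and exon overlaps are from M21.

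Measured genes reached an FPKM of 1 in 1 library or more, and log2 ratios used a pseudocount of 1. Counts have exact Poisson and folds exact binomial (Clopper-Pearson) intervals. The size trend was a lowess fit (fraction 0.3) on log10 exonic size. Members, lists and the roles were chosen with earlier results of these data known. Full values are given for roles of up to 6 genes and, in larger roles, for the 4 genes with the largest absolute log2 ratios summed over Mist1+ over Mist1- and Gpx4 KO-Mist1+ over Mist1+; of each list of other genes, the 2 highest and 2 lowest in the second comparison are named. Full values of Hmmr and the values of Cd68 and Ptprc were added after they were seen. The interval scripts were tested on simulated data. Tools were Python 3.11.15 with scipy 1.17.1, numpy 2.4.6, statsmodels 0.14.6, pandas 2.3.3 and matplotlib 3.10.9.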

Additional observations from a re-analysis of the deposited data

How the results depend on the processing

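The ratios were recomputed with a pseudocount of 0.1 or 5, without a filter or with one at an FPKM of 5, with columns brought to a common sum or scaled by the median ratio, from scaled counts without pseudocount, and with the size trend removed; the filters left all 45 genes and their values as they were. For Gpx4 KO-Mist1+ over Mist1+ the median stayed below 0 in each, from -0.46 to -0.32, and was -0.32 with the trend removed. In each setting 1 gene was at least 2-fold lower. The share over all genes ran from 0.524% with a pseudocount of 5 to 5.89% with scaled counts. For Mist1+ over Mist1- the median was 0.62 with the common sum, 0.10 with median ratio scaling and 0.090 with the trend removed. The 3 genes at least 2-fold higher there became 11 with the common sum, 5 with scaled counts, 4 with a pseudocount of 0.1, and 0 with a pseudocount of 5, median ratio scaling or the trend removed; over all genes the share was 7.88% as reported and 15.9%, 14.3%, 14.9%, 0.966%, 4.82% and 4.37% under these settings. For Gpx4 KO-Mist1+ over Mist1- the median turned to 0.082 with the common sum, and was -0.33 with median ratio scaling and -0.32 with the trend removed. Genes at least 2-fold higher in that comparison, 1 as reported, numbered 2 with a pseudocount of 0.1 or scaled counts, 4 with the common sum, and 0 with a pseudocount of 5 or the trend removed; the shares over all genes were 11.6% as reported and 18.6%, 17.8%, 17.5%, 2.61% and 7.86%. Those at least 2-fold lower, 2 as reported, numbered 1 with a pseudocount of 5 or the common sum, 3 with a pseudocount of 0.1, scaled counts or the trend removed, and 4 with median ratio scaling; the shares over all genes were 8.56% as reported and 4.22%, 4.31%, 12.1%, 12.3%, 6.09% and 11.3%. The causes were not tested. Under the 2 other scalings the sign turned for 5 genes in Gpx4 KO-Mist1+ over Mist1+, for 16 in Mist1+ over Mist1- and for 11 in Gpx4 KO-Mist1+ over Mist1-. The share of all measured genes whose sign turned was not computed. No paired analysis was possible because each group has 1 library. Counting error is small here, since every gene had at least 281 counts, but it leaves out the variation between cultures, which 1 library per group cannot show.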

Other observations

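The cell cycle genes upstream of mitosis did not share 1 direction in Gpx4 KO-Mist1+ over Mist1+. Of 8 G1 and S phase cyclins and kinases 4 were below 0 and 4 above (background 58.8% and 40.7%), with a median of -0.12. Cyclin D1, Ccnd1, which starts the passage through G1, had 106 FPKM in Gpx4 KO-Mist1+, 46.5 in Mist1+ and 38.3 in Mist1-, and was 2.27-fold higher (2.18 to 2.36) in Gpx4 KO-Mist1+ than in Mist1+. Cyclin D2, Ccnd2, was 1.54-fold higher (1.51 to 1.57). The E cyclins, which act at entry into S phase, were on the other side: Ccne1 had 3.8 FPKM in Gpx4 KO-Mist1+, 11.4 in Mist1+ and 11.5 in Mist1-, and was 3.0-fold lower (2.51 to 3.59) in Gpx4 KO-Mist1+ than in Mist1+, and Ccne2 was 2.71-fold lower (2.32 to 3.18). These 4 genes were the ends of the list, and the ratios of the mitotic cyclins given above lay between them.

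Of 18 DREAM and E2F genes, which encode the transcription factors and pocket proteins of the cell cycle, 15 were below 0 (background 58.8%). Their median was -0.52. E2f2 had 1.21 FPKM in Gpx4 KO-Mist1+, 4.71 in Mist1+ and 3.47 in Mist1-, and was 3.88-fold lower (3.1 to 4.91) in Gpx4 KO-Mist1+ than in Mist1+. E2f8 had 7.93 FPKM in Gpx4 KO-Mist1+, 20.5 in Mist1+ and 8.03 in Mist1-, and was 2.58-fold lower (2.37 to 2.82). Rb1, the retinoblastoma gene, was 1.44-fold higher (1.31 to 1.58), and E2f5 1.24-fold higher (1.09 to 1.42). Among 8 inhibitors of cyclin-dependent kinases the median was 0.17 and 5 were above 0 (background 40.7%). Cdkn1a, which encodes p21, had 38.3 FPKM in Gpx4 KO-Mist1+, 10.1 in Mist1+ and 17.2 in Mist1-, and was 3.8-fold higher (3.47 to 4.17) in Gpx4 KO-Mist1+ than in Mist1+; in Mist1+ over Mist1- it was 1.71-fold lower (1.53 to 1.9). Cdkn2a, which encodes p16 and p19Arf from shared exons that a gene count cannot part, had 10.7 FPKM in Gpx4 KO-Mist1+, 1.32 in Mist1+ and 12.1 in Mist1-. It was 8.13-fold higher (5.36 to 12.9) in Gpx4 KO-Mist1+ than in Mist1+, from 206 and 25 counts. The lowest of the list were Cdkn2c at a log2 ratio of -0.64 and Cdkn1c at -0.42.

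Promoters of the 100 other mitosis genes with a window held a CHR word in 44 cases. That share was below the 81.1% above and higher than the 21.7% of all genes in the promoter table. In 28 cases a CHR word came together with a CCAAT, against 8.61% of all genes. Among the 37 mitosis genes the 30 with a CHR word had a median log2 ratio of -0.41 in Gpx4 KO-Mist1+ over Mist1+ and the 7 without had -0.56; in Mist1+ over Mist1- they had 0.52 and -0.06. No test was made of these differences.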
